A study of Mus musculus with 6 samples.

Results

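Insr, Irs1, Irs2, Akt1, Akt2, Slc2a1, Slc2a4 and Pde3b carry the insulin signal from the cell surface to glucose transport and to the breakdown of cyclic AMP. These 8 genes were taken by symbol from the 21671 genes of the deposited expression table, and all 8 passed the filter on low values. Insulin binds its receptor at the surface, the activated receptor phosphorylates insulin receptor substrate proteins, and these recruit PI3-kinase, which leads to activation of Akt kinases. In muscle fibers and adipocytes, the main insulin-responsive cells of glucose disposal, Akt releases the glucose transporter GLUT4 from internal vesicles to the cell surface. In adipocytes insulin also restrains lipolysis through a phosphodiesterase that lowers cyclic AMP.

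RNA-Seq was performed on satellite cells (SCs), the muscle stem cells, and on α7Sca1 cells, all freshly sorted from gastrocnemius muscle of homozygous mdxITGAM-DTR mice aged 10 to 12 weeks. Mdx mice lack dystrophin, and the ITGAM-DTR transgene places the diphtheria toxin (DT) receptor under the promoter of the CD11b gene, so that DT depletes monocytes and macrophages. All animals, controls included, carried the mdx mutation and the transgene, and they received intramuscular injections every 4 days until sorting at day 15. SCs CTRL were Lin- Sca1- α7-integrin+ cells from PBS-injected mice, SCs DT were the same gate from DT-injected mice, and α7Sca1 cells were Lin- Sca1+ α7-integrin+ cells, sequenced from DT-injected mice only. Each group had 2 libraries, each from a pool of 2 mice, so that n = 2 throughout and cell type and treatment differ together between α7Sca1 cells and SCs CTRL. The depth of the libraries is unknown, since the values were deposited as RPKM, reads normalized for transcript length and sequencing depth, and their sorted values differed by at most 0.0192 RPKM between libraries. Such values cannot show a change that moves most transcripts of a library together.

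Marker lists were read as summed RPKM. The 9 adipocyte markers, led by Fabp4 and Adipoq, summed to 69.4 to 93.6 RPKM in SCs CTRL, 157 to 258 RPKM in SCs DT and 3819 to 4014 RPKM in α7Sca1 cells. The 9 satellite cell markers, led by Des and Itga7, summed to 512 to 655, 592 to 645 and 91.8 to 121 RPKM in the same order, and Pax7, the defining SC factor, was at 4.87 and 5.01, at 3.45 and 2.67, and at 0.380 and 0.319 RPKM. The 9 muscle fiber markers, led by Acta1 and Tnnc2, summed to 163 to 297, 1069 to 1694 and 32.0 to 35.2 RPKM. The 8 macrophage markers measured, led by Lyz2 and C1qa, summed to 382 to 751, 173 to 324 and 63.2 to 86.4 RPKM. The 7 markers of fibroadipogenic progenitors and fibroblasts, led by Col1a1 and Dcn, summed to 400 and 3051, 321 to 436 and 840 to 1287 RPKM. SCs CTRL replicate 1 held the value of 3051 RPKM and stood apart from the other SC libraries in that list. Markers of endothelial cells (led by Cldn5 and Pecam1), pericytes (Rgs5 and Notch3) and red cells (Hba-a2 and Hbb-b1) were not higher in sum in α7Sca1 cells than in the highest SC library.

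The receptor, both glucose transporters and the phosphodiesterase were higher in α7Sca1 cells than in either SC population, while the substrates and the Akt kinases did not pass the test. Against SCs DT, RPKM was 7.92-fold higher for Pde3b, 2.91-fold for Slc2a4, 2.89-fold for Insr and 2.68-fold for Slc2a1, as ratios of group means. The test was limma's moderated test on log2(RPKM + 1), fitted over all 13934 genes whose maximum exceeded 0.25 RPKM, with Benjamini-Hochberg adjustment and a threshold of 0.05. Adding 1 RPKM compresses the fold changes of weakly expressed genes, here Insr and Pde3b. In this test 4 of the 8 genes were called higher and 0 lower in α7Sca1 cells against SCs DT, where 30.3% of all tested genes were called, 14.6% higher and 15.6% lower. Against SCs CTRL the same 4 genes were called higher, where 32.3% of all tested genes were called, 15.1% higher and 17.3% lower. The median difference of the 8 genes was 0.88 against SCs DT and 0.99 against SCs CTRL, beside -0.04 and -0.06 for all genes tested. The libraries did not overlap for 7 of 8 genes against SCs DT (6 higher and 1 lower, where 67.2% of all tested genes did not overlap, 30.8% higher and 36.4% lower) and for 8 of 8 against SCs CTRL (7 higher and 1 lower, where the shares were 68.1%, 30% and 38.1%). Both comparisons use the same α7Sca1 libraries, so they do not support each other independently. In bulk libraries, fewer cells of a type and less RNA per cell cannot be told apart.

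**Figure D1:**
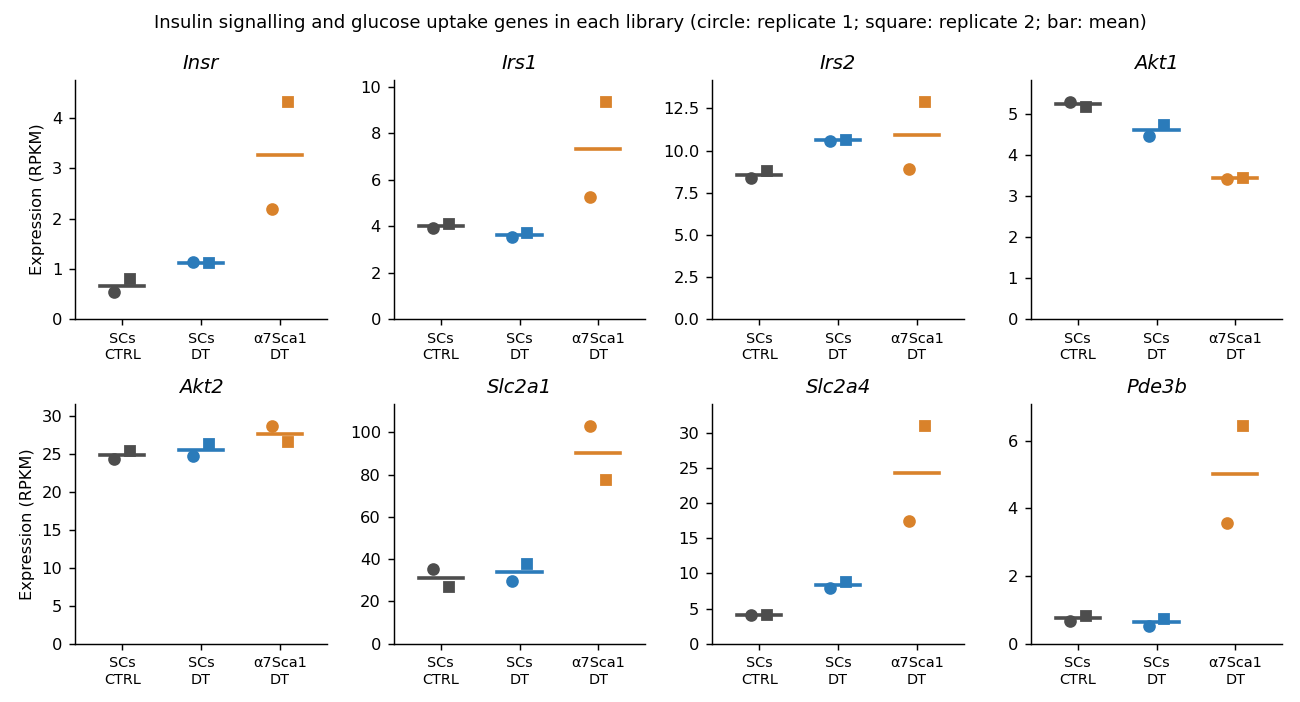
Expression of the 8 genes in each of the 6 libraries, in RPKM on linear axes that start at 0 (circles: replicate 1; squares: replicate 2; bars: mean of the 2 libraries). For Insr, Slc2a1, Slc2a4 and Pde3b both α7Sca1 libraries lie above all 4 SC libraries, Akt1 lies lowest in α7Sca1 cells, and Akt2 lies between 24.4 and 28.7 RPKM throughout.

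Insr encodes the insulin receptor, a tyrosine kinase (chromosome 8, 3150922 to 3279617, minus strand, NCBIM37). It was at 0.551 and 0.795 RPKM in SCs CTRL, at 1.14 and 1.12 RPKM in SCs DT, and at 2.18 and 4.33 RPKM in α7Sca1 cells. The 3 groups did not overlap, with α7Sca1 cells highest and SCs CTRL lowest, but the α7Sca1 replicates differed from each other by 1.98-fold. The difference was 0.95 on the log2 scale against SCs DT (standard error 0.25, adjusted p = 0.0264 from limma) and 1.30 against SCs CTRL (standard error 0.25, adjusted p = 0.00768). The call against SCs DT was the least stable of the 4, since it was lost in 7 of 15 alternative analyses. Leaving out a single library ended it for either SC CTRL library (adjusted p of 0.0722 and 0.0711), for either SC DT library (0.137 and 0.127) and for α7Sca1 replicate 2 (0.0538, limma), without which the difference was 0.58. Against SCs CTRL the call was lost without either SC CTRL library (adjusted p of 0.0794 and 0.0616, limma).

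Irs1 and Irs2 encode the main insulin receptor substrates, the docking proteins that link the receptor to PI3-kinase. Irs1 (chromosome 1, 82229676 to 82287991, minus strand, NCBIM37) was at 3.92 and 4.11 RPKM in SCs CTRL, at 3.53 and 3.73 RPKM in SCs DT, and at 5.25 and 9.37 RPKM in α7Sca1 cells. Both α7Sca1 libraries exceeded every SC library, yet replicate 2 was 1.78-fold above replicate 1. The difference did not pass the test against SCs DT (0.80 on the log2 scale, 95% interval 0.19 to 1.40, adjusted p = 0.0532 from limma) or against SCs CTRL (0.68, 0.08 to 1.29, adjusted p = 0.0817). The α7Sca1 replicates decided its size. Without α7Sca1 replicate 1 the difference was 1.16 against SCs DT and 1.05 against SCs CTRL and passed against both (adjusted p of 0.00769 and 0.00987, limma), and without replicate 2 it was 0.43 and 0.32 and passed against neither (0.114 and 0.21).

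Irs2 (chromosome 8, 10986980 to 11008458, minus strand, NCBIM37) stood above Irs1 in RPKM in each of the 6 libraries. It was at 8.35 and 8.80 RPKM in SCs CTRL, at 10.6 and 10.6 RPKM in SCs DT, and at 8.89 and 12.9 RPKM in α7Sca1 cells. The SC DT values lay between those of the α7Sca1 replicates, so these groups overlapped, while both stood above SCs CTRL. The difference of α7Sca1 cells from SCs DT was 0.02 on the log2 scale, with a 95% interval from -0.51 to 0.54 (adjusted p = 0.964, limma), and it turned to -0.23 without α7Sca1 replicate 2.

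The Irs1 and Irs2 promoters are shown because these related substrates differed in their pattern over the groups and yet shared letters. The RefSeq windows (GRCm38.p6, 250 bases before the annotated start, given 5′ to 3′ on the minus strand) lie at chr1:82291440-82291689 and chr8:11008930-11009179. Capitals mark the runs of at least 10 letters found in both windows.
Irs1: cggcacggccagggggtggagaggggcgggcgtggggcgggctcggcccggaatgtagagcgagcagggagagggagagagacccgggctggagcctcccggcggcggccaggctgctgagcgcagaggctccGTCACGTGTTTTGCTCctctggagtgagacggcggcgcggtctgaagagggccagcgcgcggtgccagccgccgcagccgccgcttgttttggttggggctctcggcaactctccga
Irs2: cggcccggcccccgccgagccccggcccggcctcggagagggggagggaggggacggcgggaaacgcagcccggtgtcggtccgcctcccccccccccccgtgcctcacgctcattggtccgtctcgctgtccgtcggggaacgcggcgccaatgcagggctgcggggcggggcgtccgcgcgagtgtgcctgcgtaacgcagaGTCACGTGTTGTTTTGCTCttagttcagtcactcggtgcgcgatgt
The windows shared 2 runs of 10 letters, gtcacgtgtt and tgttttgctc, which overlap each other in both genes. The first began 117 bases before the start in Irs1 and 46 bases before it in Irs2. Of 32851 promoter windows of this length, 0.07% held the first run on either strand and 0.0639% held the second. These shares do not say how often any 2 windows share some run of this length, which was not counted. The search for shared runs was chosen after the sequences were seen, and a match in letters is a description and not a binding site. The first run holds the E-box letters CANNTG, which were the only E-box match in each window and occur in 66.2% of all windows. Irs1 held 2 matches to the GC box letters GGGCGG and Irs2 held 1, letters found in 32.7% of windows on either strand, and the GC content was 72.4% and 72.8% beside a median of 52.4%.

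Akt1 and Akt2 encode the kinases that carry the signal onward, of which Akt2 is the isoform most tied to insulin-stimulated glucose uptake. Akt1 (chromosome 12, 113892032 to 113913095, minus strand, NCBIM37) was at 5.31 and 5.18 RPKM in SCs CTRL, at 4.47 and 4.75 RPKM in SCs DT, and at 3.43 and 3.45 RPKM in α7Sca1 cells. The 3 groups did not overlap and α7Sca1 cells were lowest, with replicates closer to each other than those of any other of the 8 genes in these cells. The difference nevertheless did not pass the test, at -0.34 on the log2 scale against SCs DT (95% interval -0.74 to 0.07, adjusted p = 0.179 from limma) and -0.49 against SCs CTRL (-0.89 to -0.09, adjusted p = 0.0649).

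Akt2 (chromosome 7, 28376571 to 28425845, plus strand, NCBIM37) was at 24.4 and 25.4 RPKM in SCs CTRL, at 24.7 and 26.4 RPKM in SCs DT, and at 28.7 and 26.6 RPKM in α7Sca1 cells. The α7Sca1 libraries stood just above the SC libraries, and the SC groups overlapped. The difference of α7Sca1 cells from SCs DT was 0.11 on the log2 scale, with a 95% interval from -0.36 to 0.58 (adjusted p = 0.706, limma). Its level was nearly even over the 3 groups.

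Slc2a1 encodes GLUT1, a glucose transporter of most cell types that stands largely at the cell surface without insulin (chromosome 4, 118781316 to 118809935, plus strand, NCBIM37). It was at 35.6 and 26.7 RPKM in SCs CTRL, at 29.9 and 37.6 RPKM in SCs DT, and at 103 and 77.5 RPKM in α7Sca1 cells. The SC groups overlapped, and both α7Sca1 libraries lay above every SC library. The difference was 1.39 on the log2 scale against SCs DT (standard error 0.27, adjusted p = 0.00845 from limma) and 1.51 against SCs CTRL (standard error 0.27, adjusted p = 0.00575). The call against SCs DT was lost without SCs DT replicate 1, where the difference was 1.23. The call against SCs CTRL was lost without SCs CTRL replicate 2, where it was 1.31. Calls over all genes also fell in these fits, which leave 1 library in a compared group.

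The Slc2a1 promoter is shown because this gene had the highest level of the 8 in all 6 libraries and was called higher in α7Sca1 cells. Its RefSeq window (GRCm38.p6, chr4:119108495-119108744, plus strand, 250 bases before the annotated start, 5′ to 3′) has the matches to the GC box in capitals, read here from the other strand as CCGCCC.
Slc2a1: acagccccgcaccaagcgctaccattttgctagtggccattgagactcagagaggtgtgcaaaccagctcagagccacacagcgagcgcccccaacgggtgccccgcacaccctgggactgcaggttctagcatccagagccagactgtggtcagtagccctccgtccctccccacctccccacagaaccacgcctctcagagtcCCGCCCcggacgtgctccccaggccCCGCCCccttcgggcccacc
The 2 matches began 45 and 20 bases before the start, and the GC content of the window was 66.4%. No match was found on either strand to the E-box, to CCAAT (in 33.8% of all windows), to the FOXO letters GTAAACA (3.17%) or to the nuclear receptor half-site AGGTCA (14%), which says only that these letters are not in this window. RefSeq windows were matched for Irs1, Irs2, Akt1, Akt2 and Slc2a1, 5 of the 8 genes, and not for Insr, Slc2a4 and Pde3b.

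Slc2a4 encodes GLUT4, the insulin-responsive glucose transporter of adipocytes and muscle fibers (chromosome 11, 69756045 to 69761690, minus strand, NCBIM37). It was at 4.09 and 4.15 RPKM in SCs CTRL, at 7.93 and 8.73 RPKM in SCs DT, and at 17.5 and 31.0 RPKM in α7Sca1 cells. The 3 groups did not overlap and stood in the order SCs CTRL, SCs DT, α7Sca1 cells from low to high. Among all tested genes of a library Slc2a4 stood at percentile 66.6 to 66.9 in SCs CTRL and at percentile 88.7 to 93.2 in α7Sca1 cells. The difference of α7Sca1 cells was 1.38 on the log2 scale against SCs DT (standard error 0.28, adjusted p = 0.00978 from limma) and 2.25 against SCs CTRL (standard error 0.28, adjusted p = 0.00126). The call against SCs CTRL was kept in all 15 alternatives run for it, and the call against SCs DT was lost without either SC DT library (adjusted p of 0.0874 and 0.0632, limma).

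Pde3b encodes the phosphodiesterase through which insulin lowers cyclic AMP in adipocytes (chromosome 7, 121558795 to 121682765, plus strand, NCBIM37). It was at 0.682 and 0.812 RPKM in SCs CTRL, at 0.520 and 0.744 RPKM in SCs DT, and at 3.57 and 6.44 RPKM in α7Sca1 cells. The SC groups overlapped below 1 RPKM, and the α7Sca1 libraries stood clear of both although they differed from each other by 1.80-fold. The difference was 1.84 on the log2 scale against SCs DT (standard error 0.24, adjusted p = 0.00181 from limma) and 1.74 against SCs CTRL (standard error 0.24, adjusted p = 0.00214). Pde3b kept its call in all 15 alternatives run for each of these comparisons. Among these, quantile scaling could change little, because the deposited values already shared a single distribution. Leaving out a library of the group not compared left the difference itself unchanged.

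**Figure D2:**
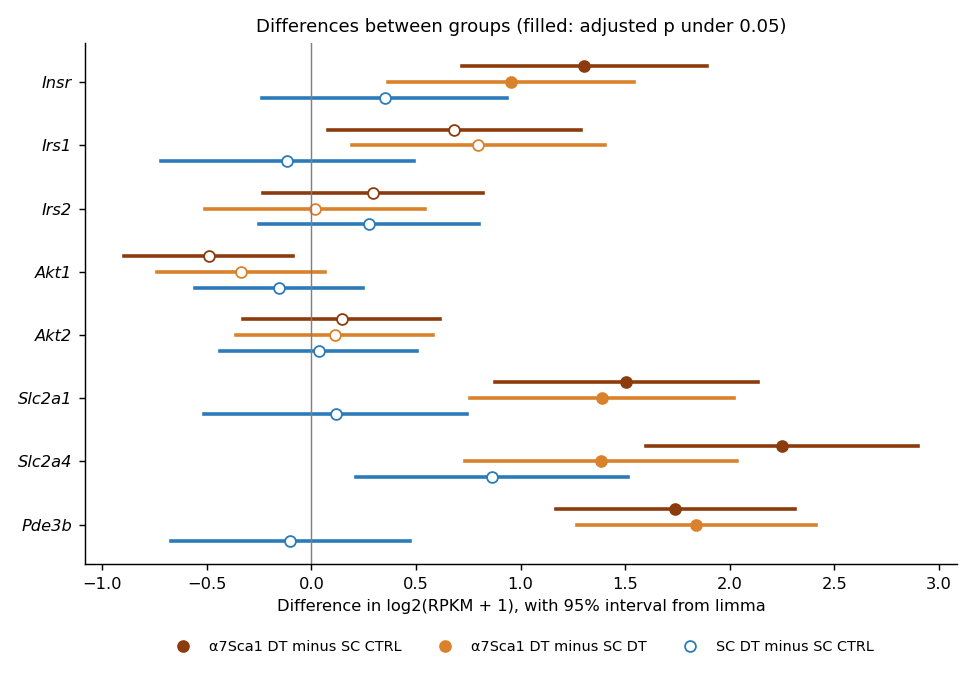
Differences in log2(RPKM + 1) between groups for the 8 genes with their 95% intervals from limma, 3 comparisons per gene (filled points: adjusted p under 0.05). Insr, Slc2a1, Slc2a4 and Pde3b have filled points in both comparisons of α7Sca1 cells, and no gene has one between SCs DT and SCs CTRL.

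In the same 2 comparisons all 9 adipocyte markers were called higher in α7Sca1 cells, against SCs DT and against SCs CTRL. None of the 9 adipocyte markers was at 0 in α7Sca1 cells, where the lowest was Lep at 1.50 and 1.12 RPKM. The 9 satellite cell markers were all called lower in both comparisons, while Itga7, the antigen of the sort, was at 41.8 and 48.5 RPKM in α7Sca1 cells and at 75.0 to 78.3 RPKM in the SC libraries. Of the 7 markers of fibroadipogenic progenitors and fibroblasts, 2 were called higher and 0 lower in both comparisons. Against SCs DT 5 were higher and 0 lower without overlap, where 30.8% and 36.4% of all tested genes were. Against SCs CTRL 2 were higher and 1 lower without overlap, where the shares were 30% and 38.1%. The 2 called were Pdgfra, at 4.55 and 3.54 RPKM in α7Sca1 cells and 0.276 to 1.65 RPKM in the SC libraries, and Ly6a, which encodes Sca1, the other antigen of the sort, at 344 and 248 RPKM and at 21.6 to 55.2 RPKM. The part of the mixture of cell types in the levels of the 8 genes was not tested.

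Within α7Sca1 cells, 5 of the 8 genes were at least 1.4-fold higher in replicate 2 than in replicate 1, namely Insr, Irs1, Irs2, Slc2a4 and Pde3b. Of 9221 tested genes with a mean of at least 1 RPKM in these cells, 22.6% were that much higher in replicate 2. Slc2a1 went the other way, at 0.751 of its replicate 1 level, and Akt1 and Akt2 stood at 1.01 and 0.926 of theirs. The adipocyte sum was lower in replicate 2 (3819 RPKM) than in replicate 1 (4014 RPKM). The large α7Sca1 means of Insr, Irs1, Slc2a4 and Pde3b therefore rest on libraries that differ by 1.77-fold to 1.98-fold.

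Macrophage depletion alone was addressed by comparing SCs DT with SCs CTRL, and none of the 8 genes passed the test there. In this comparison 0 of 8 genes were called by limma at an adjusted p under 0.05, where 0.445% of all tested genes were called (0.352% higher, 0.0933% lower), and 1 of 8 had an unadjusted p under 0.05, where 10.4% of all tested genes did. That gene was Slc2a4, whose mean was 2.02-fold higher in SCs DT, with a difference of 0.86 on the log2 scale (95% interval 0.22 to 1.51, unadjusted p = 0.0159, adjusted p = 0.32, limma). Its difference ranged from 0.80 to 1.00 over 16 alternatives, and its adjusted p ranged from 0.124 to 0.86. The groups did not overlap for 5 of the 8 genes (Slc2a4, Insr and Irs2 higher, Akt1 and Irs1 lower), where 46.8% of all tested genes did not overlap (21.6% higher, 25.1% lower).

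The 95% intervals give the range of differences that these libraries allow. For Insr SCs DT minus SCs CTRL was 0.35 on the log2 scale (95% interval -0.24 to 0.94) and for Irs2 it was 0.28 (-0.25 to 0.80). For Slc2a1 it was 0.12 (-0.51 to 0.75), for Akt2 0.03 (-0.44 to 0.51) and for Pde3b -0.10 (-0.67 to 0.47). Akt1 was at -0.16 (-0.56 to 0.25) and Irs1 at -0.12 (-0.72 to 0.49).

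Slc2a4 had a higher mean in SCs DT but did not pass the test. Markers of 2 cell types that express GLUT4 are set beside it here. Of 9 muscle fiber markers, 7 were called higher in SCs DT, where 0.352% of all tested genes were. All 9 were higher without overlap between the groups, where 21.6% of all tested genes were. Acta1 was at 108 and 197 RPKM in the controls and at 631 and 1131 RPKM after DT. Of 9 adipocyte markers, 0 were called by limma, and Lep was at 0 in all 4 SC libraries. At an unadjusted p under 0.05, 5 were higher, where 10.4% of all tested genes passed in either direction. Adipoq, a defining adipocyte hormone, was at 0.184 and 0.329 RPKM in the controls and at 5.82 and 23.9 RPKM after DT. In α7Sca1 cells the muscle fiber sum was below that of every SC library, and the adipocyte sum and Slc2a4 were above theirs. The part of fiber or adipocyte transcripts in the Slc2a4 levels of any group was not tested.

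Ratios inside a library are unchanged when all its values are multiplied by the same factor. The deposited values shared a single distribution, and the ratios can depend on how they were brought to it. With 2 libraries against 2, an exact permutation test over samples cannot give a two-sided p below 0.333, so the ratios are given with their spread. The log2 ratio of Akt2 to Akt1 was 2.20 and 2.30 in SCs CTRL, 2.47 and 2.47 in SCs DT, and 3.07 and 2.95 in α7Sca1 cells. No 2 groups overlapped (exact permutation p = 0.333 for each of the 3 comparisons), and Akt2 made up 82.1% to 83.1%, 84.7% and 88.5% to 89.3% of the summed RPKM of the pair.

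The log2 ratio of Irs1 to Irs2 was -1.09 and -1.10 in SCs CTRL, -1.58 and -1.51 in SCs DT, and -0.76 and -0.46 in α7Sca1 cells. The balance was tilted farthest to Irs2 in SCs DT and least in α7Sca1 cells, again without overlap between any groups (exact permutation p = 0.333 each). The log2 ratio of Slc2a4 to Slc2a1 was -3.12 and -2.69 in SCs CTRL, -1.91 and -2.11 in SCs DT, and -2.56 and -1.32 in α7Sca1 cells. The SC DT libraries lay between the α7Sca1 replicates (exact permutation p = 1), so the mean difference of 0.07 between these groups was smaller than the spread of α7Sca1 cells (SD 0.87).

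**Figure D3:**
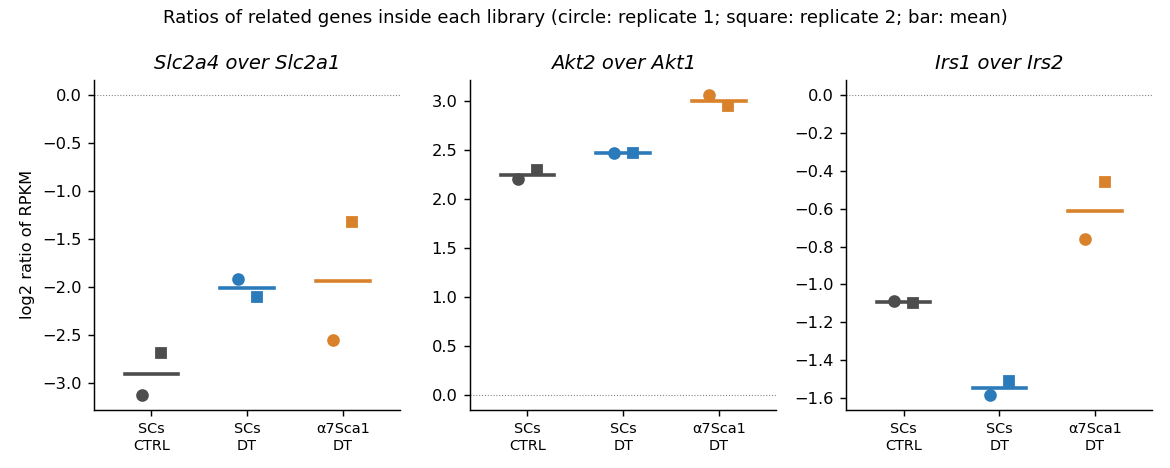
Ratios of RPKM between related genes inside each library, on a log2 axis (circles: replicate 1; squares: replicate 2; bars: mean of the 2 libraries). Akt2 over Akt1 separates the 3 groups, Irs1 over Irs2 is lowest in SCs DT and highest in α7Sca1 cells, and Slc2a4 over Slc2a1 spreads from -2.56 to -1.32 in α7Sca1 cells.

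RPKM is scaled by transcript length, which allows an order by RPKM between genes. The order is a description, since evenness of read coverage along the transcripts was not tested. Transcripts on the opposite strand also overlap Insr, Irs1, Irs2 and Slc2a1, as given below. In SCs CTRL the order by RPKM ran from Slc2a1 and Akt2 through Irs2 and Akt1 to Slc2a4 and Irs1, with Pde3b and Insr last, and the ranges of Slc2a4 and Irs1 and of Pde3b and Insr overlapped. In SCs DT the order was Slc2a1, Akt2, Irs2, Slc2a4, Akt1, Irs1, Insr and Pde3b, and no neighbors overlapped. In α7Sca1 cells Slc2a1 was again highest, the ranges of Akt2 and Slc2a4 overlapped, and so did those of Irs2 and Irs1, of Irs1 and Pde3b, and of Akt1 and Insr. The fifth place of Slc2a4 in SCs CTRL thus became the third in α7Sca1 replicate 1 and the second in replicate 2.

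Genes that neighbor these 8 in the pathway were taken from 11 lists written from textbook roles. Of 117 such genes tested, 25 were called higher and 18 lower in α7Sca1 cells against SCs DT by limma, which is 36.8% beside 30.3% of all genes tested. Against SCs CTRL 27 were called higher and 14 lower, 35% beside 32.3%. The median difference of the 117 genes was -0.05 against SCs DT and -0.06 against SCs CTRL. Between SCs DT and SCs CTRL 0 of 117 were called by limma, where 0.445% of all tested genes were. At an unadjusted p under 0.05, 6 were higher and 3 lower, where 10.4% of all tested genes passed in either direction.

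**Figure D4:**
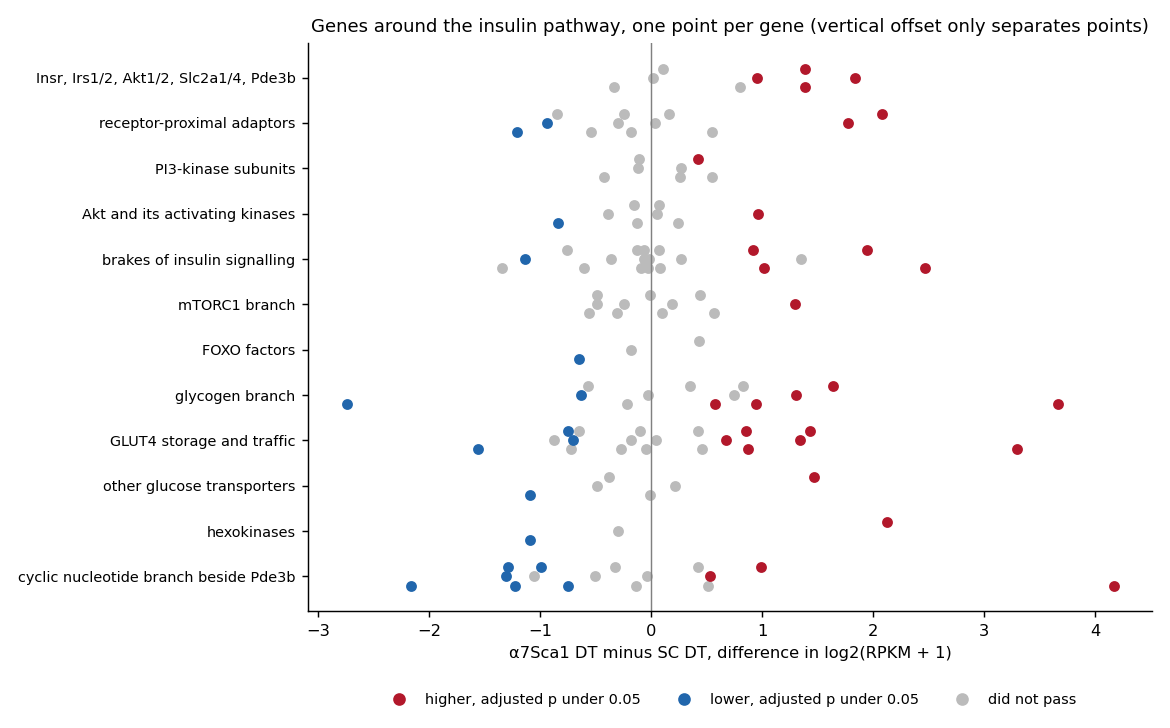
Difference between α7Sca1 cells and SCs DT in log2(RPKM + 1) for each tested gene of the pathway lists, 1 point per gene, grouped by role (red: called higher; blue: called lower; grey: did not pass at an adjusted p under 0.05). The glycogen and cyclic nucleotide lists spread widest, and PI3-kinase subunits lie close to 0 with 1 called of 7.

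Among 12 receptor-proximal adaptors, 2 were called higher and 2 lower against SCs DT. Beside this and each list below, 14.6% of all tested genes were called higher and 15.6% lower. Sh2b2, an adaptor of the insulin receptor, rose from 0.795 and 1.73 RPKM to 8.03 and 8.73 RPKM (2.08 on the log2 scale, adjusted p = 0.000903, limma). Crk, an SH2 and SH3 adaptor, fell from 16.2 and 12.4 RPKM to 6.27 and 4.99 RPKM (-1.20, adjusted p = 0.00722). Sh2b1, the relative of Sh2b2, moved opposite to it, from 5.79 and 4.84 RPKM to 2.23 and 2.33 RPKM (-0.94, adjusted p = 0.00815). Irs3, a rodent insulin receptor substrate, was named after its values were seen: it was at 0.0811 to 0.150 RPKM in the 4 SC libraries and at 3.40 and 2.20 RPKM in α7Sca1 cells (1.77 against SCs DT, adjusted p = 0.0005, limma).

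Of 7 PI3-kinase subunits 1 was called higher and 0 lower, and of 8 Akt partners and activating kinases 1 was called higher and 1 lower. Of 19 brakes of the pathway, 4 were called higher and 1 lower. Cish, a SOCS-family inhibitor of cytokine signaling, rose from 4.90 and 5.81 RPKM to 24.0 and 48.3 RPKM (2.47, adjusted p = 0.00522, limma), and Trib3, a pseudokinase that binds Akt, from 0.801 and 1.43 RPKM to 3.88 and 12.3 RPKM (1.95, adjusted p = 0.0148). Grb10, an adaptor that inhibits the insulin receptor, fell from 23.5 and 32.6 RPKM to 11.3 and 12.9 RPKM (-1.13, adjusted p = 0.0177). The replicates of Cish and Trib3 in α7Sca1 cells differed by 2.01-fold and 3.16-fold, with replicate 2 higher in both.

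Of 11 genes of the mTORC1 branch 1 was called, Eif4ebp1, the translation inhibitor that mTORC1 phosphorylates, which rose from 64.9 and 77.0 RPKM to 159 and 192 RPKM (1.29, adjusted p = 0.00707, limma). Of 3 FOXO factors, transcription factors that Akt keeps out of the nucleus, 1 was called lower. The glycogen list had 5 genes called higher and 2 lower of 13. Pygl, the liver form of glycogen phosphorylase, rose from 0.683 and 1.31 RPKM to 19.6 and 29.2 RPKM (3.66, adjusted p = 0.000197), while Pygm, the muscle form, fell from 20.0 and 23.0 RPKM to 3.41 and 1.55 RPKM (-2.74, adjusted p = 0.000664). Gys1, a glycogen synthase, rose from 4.03 and 6.57 RPKM to 12.1 and 16.7 RPKM (1.30, adjusted p = 0.0107, limma).

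GLUT4 storage and traffic had 6 genes called higher and 3 lower of 19. Tusc5, a protein of GLUT4 vesicles in adipocytes, rose from 0.542 and 1.01 RPKM to 24.1 and 10.8 RPKM (3.29, adjusted p = 0.000701, limma), and Aspscr1, which tethers GLUT4 inside the cell, from 5.61 and 6.41 RPKM to 10.6 and 13.1 RPKM (0.87, adjusted p = 0.0227). Tbc1d1, a Rab GTPase-activating protein of GLUT4 vesicles known from muscle, fell from 5.52 and 4.90 RPKM to 1.29 and 0.948 RPKM (-1.56, adjusted p = 0.00105). Its relative Tbc1d4, the Akt substrate AS160, was named after its values were seen, and it went the other way, from 0.341 and 0.168 RPKM to 2.29 and 2.46 RPKM (1.43, adjusted p = 0.000467, limma).

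Of 6 other glucose transporters tested, 1 was called higher and 1 lower, and Slc2a8, the intracellular transporter GLUT8, rose from 3.34 and 3.44 RPKM to 9.51 and 13.0 RPKM (1.46, adjusted p = 0.00319, limma). Hexokinases trap glucose by phosphorylation, and 1 of 3 tested was called higher and 1 lower. Hk2, the form typical of insulin-sensitive tissues, rose from a mean of 9.12 RPKM (SD 1.58, n = 2) to 42.6 and 43.1 RPKM (2.12, adjusted p = 0.000546), and Hk1 fell from 5.33 and 4.87 RPKM to 2.90 and 1.11 RPKM (-1.09, adjusted p = 0.0329).

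The cyclic nucleotide genes beside Pde3b had 3 called higher and 6 lower of 16. Pde3a, its closest relative, fell from a mean of 8.08 RPKM (SD 1.29, n = 2) to 1.09 and 0.964 RPKM (-2.16, adjusted p = 0.00039, limma), opposite in direction to Pde3b. Pde4b, another cyclic AMP phosphodiesterase, fell from 37.6 and 39.4 RPKM to 16.0 and 14.3 RPKM (-1.29, adjusted p = 0.00466). Adrb3, the beta-adrenergic receptor of adipocytes, was at 0.00199 and 0 RPKM in the SC controls and 0.109 and 0.564 RPKM in SCs after DT, against 18.2 and 28.2 RPKM in α7Sca1 cells (4.17 against SCs DT, adjusted p = 0.000159, limma).

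**Figure D5:**
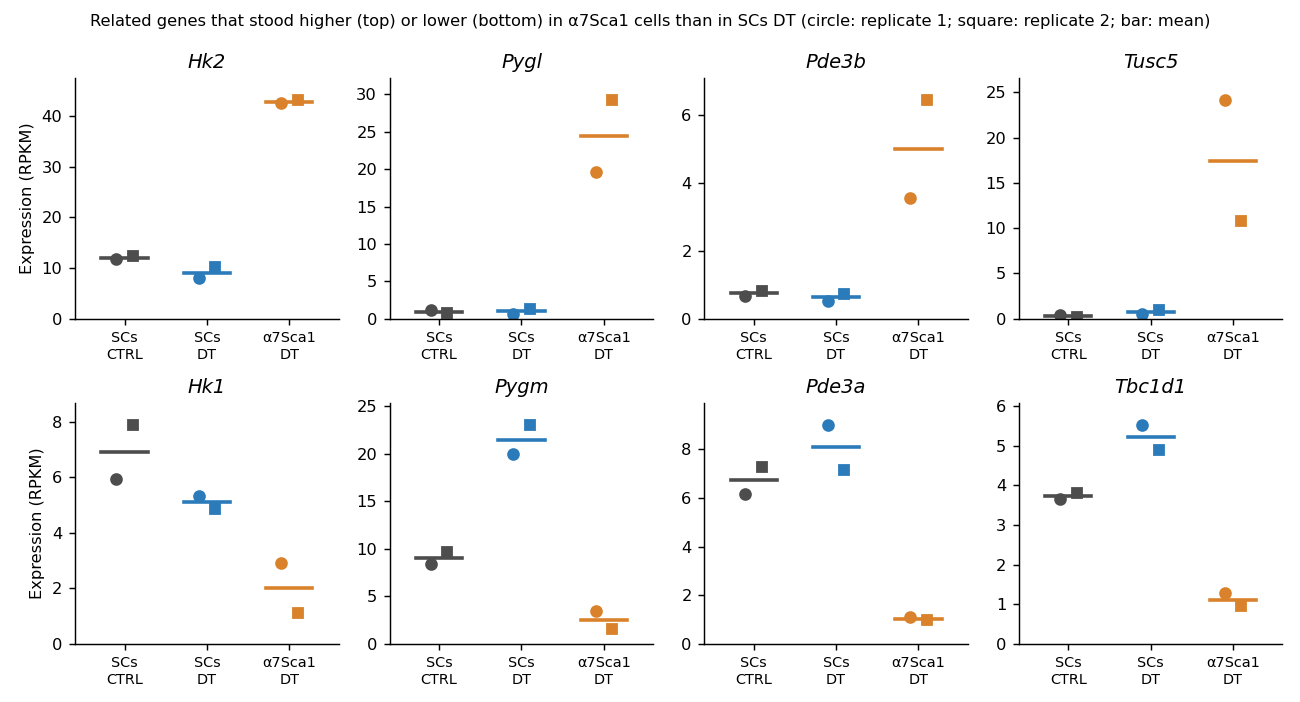
RPKM of 4 genes called higher (top row) and 4 called lower (bottom row) in α7Sca1 cells against SCs DT, each above a gene of the same step of the pathway, on linear axes from 0 (circles: replicate 1; squares: replicate 2; bars: mean of the 2 libraries). Hk2 is at 42.6 and 43.1 RPKM in α7Sca1 cells where Hk1 is at 2.90 and 1.11 RPKM, and Pygl, Pde3b and Tusc5 likewise lie above all SC libraries while Pygm, Pde3a and Tbc1d1 lie below them.

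For each of the 8 genes, the genes of most similar pattern were found by the Euclidean distance between mean-centered log2(RPKM + 1) values over the 6 libraries, among 5186 candidates with a mean of at least 5 RPKM in a group. For Slc2a4 these were Tap1 (distance 0.28), Mndal (0.29) and Gbp7 (0.34), and for Slc2a1 Ebf2 (0.27), Dhrs7 (0.31) and Shisa5 (0.31). For Pde3b they were Mut (0.20), Pex13 (0.21) and Gucd1 (0.23), and for Insr Cmc1 (0.16), Znhit3 (0.18) and Cisd1 (0.20). For Irs1 they were Prkag1 (0.16), Psmd9 (0.16) and Pex5 (0.16), and for Irs2 Zfp637 (0.05), Nfe2l2 (0.15) and Sar1b (0.16). For Akt1 they were Wdr45b (0.08), Spop (0.14) and Txnl4a (0.15), and for Akt2 Atp6v1c1 (0.08), Nosip (0.12) and Pmpca (0.14). The points share libraries and groups, so the distances describe these 6 libraries only.

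In GENCODE on NCBIM37 transcripts on the opposite strand overlap Insr (Gm16180), Irs1 (Gm9747), Irs2 (9530052E02Rik) and Slc2a1 (Gm12867 and Gm12868). The overlaps cover 938 bases of Insr, 2822 of Irs1, 609 of Irs2, and 710 and 3582 of Slc2a1, introns included. SMART-Seq2 as described does not mark strand, so reads from within these stretches cannot be assigned to 1 gene. Whether the stretches lie in exons was not tested.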

How the data were processed

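RNA-Seq libraries were made by SMART-Seq2, which copies polyadenylated RNA, and read for 50 bases. The authors aligned reads to mm9 (the submitters' processing notes name TopHat2 2.0.8) and deposited RPKM. These had been brought to a single distribution, so depth and counting error are unknown. A second deposited table, with the authors' own fold changes and p-values for SCs and 10 per-sample columns, was not used.

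Groups and replicate numbers came from the sample labels. The p-values measure the spread between libraries, each a pool of mice. On log2(RPKM + 1), limma 3.58.1 in R 4.3.3 fitted 3 group means to all 6 libraries with a variance trend and no replicate block, for genes with a maximum above 0.25 RPKM, and was checked on simulated data. The spread is shared by the groups, with 3 residual and 4.29 prior degrees of freedom. Ratios were tested by exact permutation (scipy 1.17.1). Named were all 8 genes, up to 3 called genes per pathway list with the largest difference and a mean of at least 5 RPKM, 2 genes per marker list (a further marker list is not reported here), and the 3 genes most like each of the 8. The genes and lists were chosen with earlier results of these data known. Alternatives changed the pseudocount (0.1 or 0.5 RPKM), the filter, the scaling (median ratios, quantiles), the libraries fitted, the block and the trend. Others left out each library while keeping the tested genes. Quantile scaling could change little, since the deposited values already shared a single distribution. Promoters are from RefSeq, coordinates from GENCODE M1. Scripts ran under Python 3.11.15 with pandas 2.3.3, numpy 2.4.6 and matplotlib 3.10.9.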

Additional observations from a re-analysis of the deposited data

How the results depend on the processing

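Differences of the 8 genes reversed only where they were not called. In α7Sca1 cells against SCs DT, Irs2 ranged from -0.23 (without α7Sca1 replicate 2) to 0.26 when a library was left out. In SCs DT against SCs CTRL, Slc2a1 ranged from -0.084 (without SCs CTRL replicate 2; -0.045 without SCs DT replicate 2) to 0.32, and Akt2 from -0.010 (without SCs DT replicate 2) to 0.079. The cause of these reversals was not tested. The log2 ratio of Slc2a4 to Slc2a1 in α7Sca1 cells minus SCs DT, 0.07, became -0.0045 with 1 RPKM added to both genes and ranged from -0.55 (without α7Sca1 replicate 2) to 0.69. With 1 RPKM added, which shrinks ratios of low values, Akt2 to Akt1 moved to 0.64 in α7Sca1 cells minus SCs CTRL and 0.45 minus SCs DT, and Irs1 to Irs2 to -0.39 in SCs DT minus SCs CTRL.

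Of all genes, 4506 were called in α7Sca1 cells against SCs CTRL (1741 without SCs CTRL replicate 2, the lowest, to 4690 when a library was left out) and 4216 against SCs DT (1590 without SCs DT replicate 1, the lowest, to 4391). Between SCs DT and SCs CTRL 62 were called by limma, and 0 to 24 when a library was left out, with 0 without SCs CTRL replicate 1 (852 at an unadjusted p under 0.05) and 0 without SCs DT replicate 2 (1064). The count was 2 with no filter, 35 without the trend, and 1 with only the 4 SC libraries fitted. Dropping the filter changed both the number of genes tested and the variance trend fitted, and the cause of the lower count was not tested. In this comparison 0 of the 8 genes were called under each alternative run.

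Slc2a4 and Insr against SCs DT, and Insr against SCs CTRL, also lost their calls with no filter (adjusted p of 0.0565, 0.115 and 0.0592, limma), and Insr against SCs DT with only the compared libraries fitted (0.073). Irs1 against SCs DT became called with 0.1 RPKM added (0.0498), a filter of at least 1 RPKM (0.0448) and median-ratio scaling (0.041). Akt1 against SCs CTRL became called, as lower, with no filter (0.0294) and without the trend (0.0339).

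The replicate numbers are shared by the groups, but no label says that they pair libraries, and the replicate differences correlated at -0.131 between SCs CTRL and SCs DT, 0.162 between SCs CTRL and α7Sca1 cells and 0.255 between SCs DT and α7Sca1 cells. With a replicate block 4636, 4336 and 92 genes were called in α7Sca1 cells against SCs CTRL, against SCs DT and in SCs DT against SCs CTRL. Irs1 against SCs DT became called with the block (adjusted p = 0.0403, limma), and no other call of the 8 genes changed. A crossed pairing of the SC libraries, chosen after seeing the data, called 50 genes. With 2 libraries per group and depth unknown, precision is limited to the intervals given.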
